A study of Arabidopsis thaliana with 10 samples.

Results

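The genes of the Arabidopsis thaliana circadian clock followed here by locus identifier were LHY, CCA1, PRR9, PRR7, PRR5, PRR3, TOC1, GI, ELF4 and LUX: 10 of the 38303 genes in the deposited tables. All 10 were found. The set was chosen by knowledge of the clock and with the values of these same tables in view, namely the levels in the 5 groups and the changes in the 3 comparisons, so the members' levels and changes are given here as a description and not as tests.

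The libraries are of whole 12-day-old seedlings of the accession Col-0, grown at 23 °C in days of 16 h light and 8 h dark, in 5 groups of 2 libraries. In the hormone experiment wild-type Col-0 seedlings received either mock or 100 nM brassinolide, the most active brassinosteroid, for 6 h. In the overexpression experiment none of the plants was treated, and wild-type Col-0 stood beside a line carrying BEH2-YFP and a line carrying BZR1-YFP, both in the Col-0 background and both driven by the 35S promoter, which is active in most tissues, not only where these transcription factors normally act. The labels' protocol names mock for the hormone control while the titles call it non-treatment; it is called mock here, and the other control is called untreated Col-0. The number of independent lines behind each transgene and the hour of harvest were not given in the sources used. Each deposited table gives 1 pooled FPKM per gene and group (fragment counts scaled to transcript length and to library size), so neither the depth nor the spread between the 2 libraries of a group can be shown. The number after ± is a standard error of a log2 ratio, derived from the test statistic in the authors' deposited table. A gene is called where the q-value in the authors' deposited table is under 0.05, and only called genes are said to have risen or fallen.

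The plant clock is a network of repressors that act on each other in turn through the day. LHY and CCA1 are Myb-related factors that peak around dawn and repress the evening genes through a promoter motif, the evening element. The pseudo-response regulators PRR9, PRR7 and PRR5 follow from morning to afternoon and repress LHY and CCA1, as does TOC1 (also PRR1) in the evening. PRR3 protects the TOC1 protein, GI stabilises the photoreceptor ZTL that degrades TOC1, and ELF4 and LUX form the evening complex with ELF3, which represses PRR9 and growth genes at night. Transcripts of all of them cycle over the day, so a level in a seedling depends on the hour at which it was collected.

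The upstream sequences are shown first, for the genes whose levels were farthest apart between the experiments and in which known clock motifs were found. PRR3, 11.3-fold higher in mock than in untreated Col-0, held none of the motifs searched and is left out. Picked by level and by motif, the printed sequences cannot show whether motif and level go together. Each sequence is the 250 bases before the annotated gene start, read 5′ to 3′ on the gene's strand from the RefSeq copy of TAIR10.1, the assembly the deposited tables name. Capitals mark the evening element (AAAATATCT) and the G-box (CACGTG), found by exact match on either strand. The first sequences belong to genes that stood far higher in the overexpression experiment: CCA1 (chr2:19245341-19245590, plus strand), LHY (chr1:37872-38121, minus strand) and PRR9 (chr2:19232357-19232606, plus strand).
CCA1: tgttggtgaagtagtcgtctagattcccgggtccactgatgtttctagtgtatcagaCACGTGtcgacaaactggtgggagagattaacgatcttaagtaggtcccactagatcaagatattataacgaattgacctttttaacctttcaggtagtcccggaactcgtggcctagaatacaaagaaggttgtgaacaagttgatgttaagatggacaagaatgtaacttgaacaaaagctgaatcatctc
LHY: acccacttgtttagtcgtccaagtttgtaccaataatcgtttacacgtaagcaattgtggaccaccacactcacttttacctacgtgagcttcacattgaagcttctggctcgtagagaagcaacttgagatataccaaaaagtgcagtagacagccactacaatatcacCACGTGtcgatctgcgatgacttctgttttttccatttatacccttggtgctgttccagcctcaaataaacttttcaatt
PRR9: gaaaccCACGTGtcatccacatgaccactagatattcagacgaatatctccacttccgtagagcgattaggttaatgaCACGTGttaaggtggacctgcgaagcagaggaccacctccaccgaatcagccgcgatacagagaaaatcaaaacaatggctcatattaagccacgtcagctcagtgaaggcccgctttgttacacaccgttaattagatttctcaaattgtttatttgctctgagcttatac

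The next sequences belong to genes that stood higher in the hormone experiment: TOC1 (chr5:24674713-24674962, plus strand) and LUX (chr3:17182792-17183041, plus strand).
TOC1: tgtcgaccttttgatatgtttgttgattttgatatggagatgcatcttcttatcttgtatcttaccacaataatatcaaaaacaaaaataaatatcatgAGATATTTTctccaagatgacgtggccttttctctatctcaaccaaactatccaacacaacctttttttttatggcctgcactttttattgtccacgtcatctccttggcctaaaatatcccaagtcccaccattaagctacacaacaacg
LUX: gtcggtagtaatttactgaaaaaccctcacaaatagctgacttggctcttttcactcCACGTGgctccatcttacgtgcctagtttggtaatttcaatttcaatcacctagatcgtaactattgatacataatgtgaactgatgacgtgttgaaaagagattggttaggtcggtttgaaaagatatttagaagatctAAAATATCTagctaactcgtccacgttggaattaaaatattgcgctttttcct

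In the 500 bases before the start, 5 of the 10 genes held a G-box, against 9.35% of 27443 protein-coding genes on the nuclear chromosomes. These were LHY, CCA1, PRR7, PRR9, which held a pair of them, and LUX. An evening element stood before TOC1, LUX and PRR5, 3 of the 10, against 4.44% of all. PRR5 held a pair. The shorter CCA1-binding site (AAAAATCT) was found before LHY, PRR5 and PRR9, against 12.5% of all genes, and the LUX-binding letters GATACG or GATTCG before TOC1, PRR9, ELF4 and LUX, against 22.6%. The brassinosteroid response element, searched as CGTGCG or CGTGTG, occurred before CCA1 alone of the 10, against 11.5% of all genes. PRR3 and GI held none of the motifs searched. None of these matches before the 10 genes overlapped another. A match describes the letters in the window and is not evidence of binding.

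The levels in both Col-0 controls were compared first. The dawn gene CCA1 (AT2G46830, chromosome 2, 19245591 to 19248915, plus strand) had 0.249 FPKM in mock and 0.261 with brassinolide, against 45.2 in untreated Col-0, 41.3 in BEH2-YFP and 50.6 in BZR1-YFP. Its partner LHY (AT1G01060, chromosome 1, 33365 to 37871, minus strand) was measured at 0.571 and 0.548 FPKM in the hormone experiment, and at 14.3, 16.9 and 14.6 FPKM in the same order of overexpression groups. Both dawn genes were thus near the floor in every group of one experiment and well expressed in every group of the other. Between the controls the ratio was 181-fold for CCA1 and 25.1-fold for LHY. These ratios rest on levels under 1 FPKM in mock: with a pseudocount of 1 the log2 ratio was -5.21 in place of -7.50 for CCA1 and -3.29 in place of -4.65 for LHY.

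Of the daytime regulators, PRR9 (AT2G46790, chromosome 2, 19232607 to 19235179, plus strand) shared that pattern, with 0.218 FPKM in mock and 0.252 with brassinolide against 24.9, 18.9 and 30.0 FPKM in untreated Col-0, BEH2-YFP and BZR1-YFP. PRR7 (AT5G02810, chromosome 5, 637681 to 642030, minus strand) was measured at 15.7 and 16.3 FPKM in the hormone experiment and at 68.3, 57.8 and 65.8 FPKM in the other. It was the highest of the 10 in all 3 overexpression groups. PRR5 (AT5G24470, chromosome 5, 8356204 to 8358546, minus strand), the latest of these to peak, was close in both controls, at 10.8 FPKM in mock and 8.85 in untreated Col-0. The level in mock was 114-fold lower for PRR9 (log2 -6.84, or -4.41 with a pseudocount of 1), 4.36-fold lower for PRR7 and 1.22-fold higher for PRR5.

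The evening genes stood the other way round, with GI as the exception. TOC1 (AT5G61380, chromosome 5, 24674963 to 24678550, plus strand) was the highest of the 10 in mock and with brassinolide, at 79.3 and 89.4 FPKM, and had 13.8, 14.0 and 12.3 FPKM in untreated Col-0, BEH2-YFP and BZR1-YFP. PRR3 (AT5G60100, chromosome 5, 24197971 to 24201415, minus strand) was at 23.0 and 21.2 FPKM in the hormone experiment and at 2.03, 1.75 and 1.497 FPKM in the other. GI, by contrast, was 1.47-fold lower in mock than in untreated Col-0.

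ELF4 (AT2G40080, chromosome 2, 16734294 to 16734953, minus strand) was at 72.9 FPKM in mock and 67.4 with brassinolide, against 13.4 in untreated Col-0, 4.49 in BEH2-YFP and 8.99 in BZR1-YFP. LUX (AT3G46640, named PCL1 in the tables, chromosome 3, 17183042 to 17186959, plus strand) was at 43.7 and 45.0 FPKM against 7.95, 9.69 and 8.57. Both subunits of the evening complex were therefore over 5-fold higher in mock than in untreated Col-0, 5.44-fold for ELF4 and 5.50-fold for LUX. LUX shares 1507 bases with AT3G46650 on the opposite strand, and the sources do not say whether counting used strand; AT3G46650 stood at 0.836 FPKM in mock and 5.39 in untreated Col-0, the opposite order to LUX. GI (AT1G22770, chromosome 1, 8061751 to 8067790, plus strand) varied least over the 5 groups, from 12.4 FPKM with brassinolide to 19.2 in untreated Col-0.

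**Figure D1:**
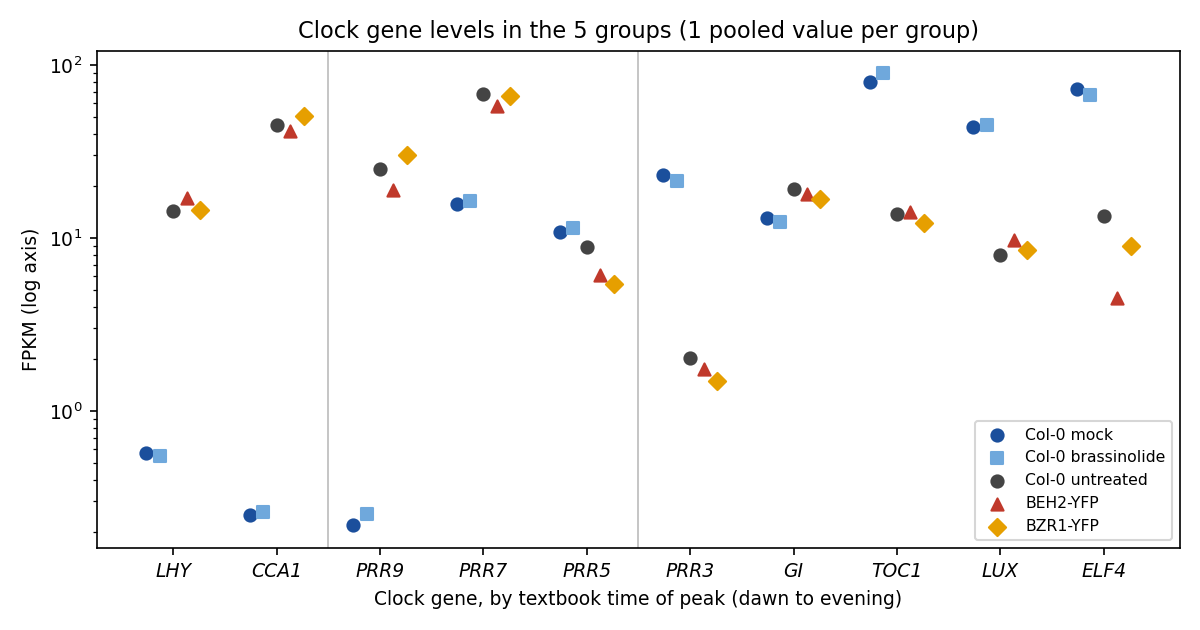
Levels of the 10 clock genes in FPKM on a log axis, 1 pooled value per gene and group, ordered by the textbook time of their peak from dawn to evening, with vertical lines between dawn, day and evening genes. CCA1 stood at 0.249 FPKM in mock and 45.2 in untreated Col-0, TOC1 at 79.3 and 13.8, while ELF4 ranged from 4.49 to 13.4 FPKM within the overexpression experiment.

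Within a group the dawn and evening genes can be set beside each other, since FPKM is scaled to length. TOC1 transcript exceeded CCA1 transcript 318-fold in mock and 343-fold with brassinolide. Both ratios divide by very low CCA1 levels, 0.249 and 0.261 FPKM, so their size is uncertain. In untreated Col-0 the ratio was turned round, with 3.27 times as much CCA1 as TOC1, and it was 2.94 in BEH2-YFP and 4.13 in BZR1-YFP. The order of all 10 levels was the same in mock and brassinolide, from TOC1, ELF4 and LUX down to LHY, CCA1 and PRR9. In the overexpression experiment PRR7, CCA1, PRR9, GI, LHY and TOC1 took the first 6 places in that order in all 3 groups, and PRR3 the last. With 1 pooled value per group, whether neighbours in these orders differ beyond the spread between libraries cannot be shown.

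Of the 10 clock genes, 8 were at least 2-fold apart between the controls, 4 higher in mock (TOC1, PRR3, ELF4 and LUX) and 4 lower (CCA1, PRR9, LHY and PRR7). Of the 21120 genes with an FPKM of at least 1 in either control, 16.3% were as far apart, 8.75% higher in mock and 7.52% lower. The median absolute log2 ratio of the 10 was 2.49, against 0.41 for those genes. The set was chosen with these levels in view, so the counts describe it and support nothing. Over all genes the median log2 ratio of mock to untreated Col-0 was 0.20, and relative to that median the log2 ratio was 0.09 for PRR5, -0.76 for GI and from -7.70 for CCA1 to 3.30 for PRR3 at the extremes. The controls belong to separate experiments and separate Cuffdiff runs, and one of them spent 6 h in a mock treatment, so the hour of harvest, the treatment and the experiment cannot be told apart as the origin of these levels.

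**Figure D2:**
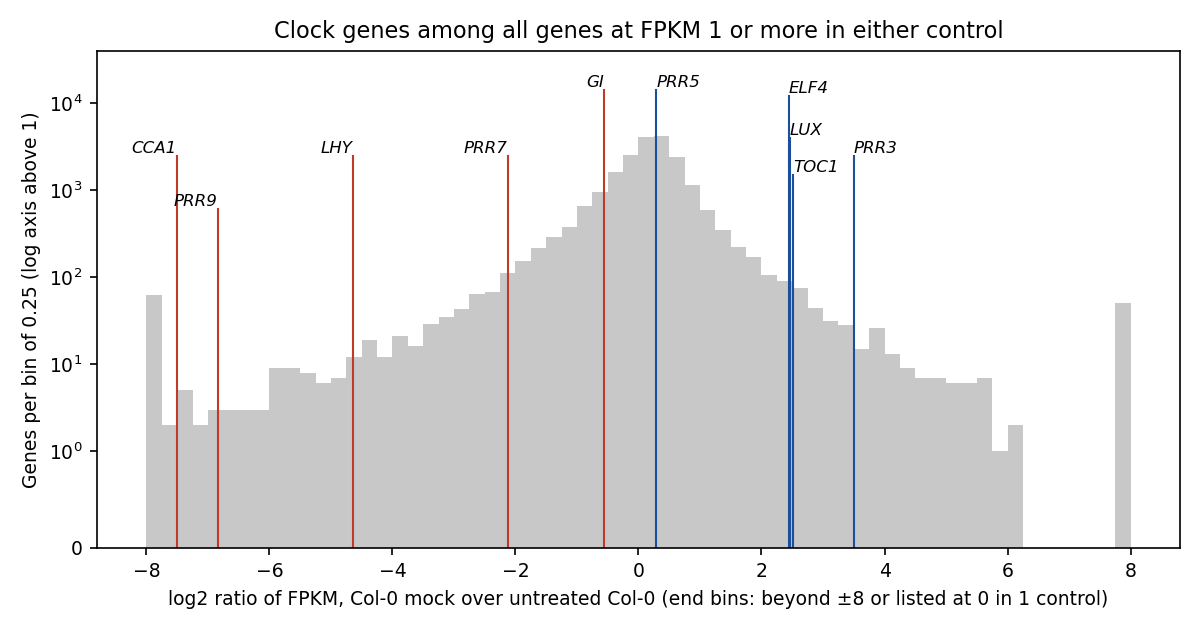
Distribution of the log2 ratio of FPKM in Col-0 mock over untreated Col-0 for 21120 genes (grey bars, count per bin on an axis that is logarithmic above 1), with a line at the ratio of each clock gene, red where mock was lower and blue where it was higher. CCA1 lies at -7.50 and PRR3 at 3.50, while PRR5 and GI lie among most genes at 0.29 and -0.56.

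A pair of clock genes lie close together on chromosome 2: 10411 bases separate PRR9 from CCA1, and 3 protein-coding genes lie between them. Of those, ZAT stood at 55.1 FPKM in mock and 37.5 in untreated Col-0, and AT2G46810 at 14.3 and 12.4. PSI-P, which encodes a thylakoid protein, stood at 319 and 1268 FPKM, a log2 ratio of -1.99. PRR7 lies 6617 bases from RVE4, a Myb-related relative of LHY, which was at 51.4 FPKM in mock and 62.5 in untreated Col-0.

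The same control comparison was made for 49 other genes of the clock and its outputs, listed from textbook knowledge with earlier results of these data known. Of 12 RVE and LNK genes 8 were at least 2-fold lower in mock and 1 higher. The LNK genes, coactivators that work with RVE8 in the morning, were the farthest apart in this list: LNK3 stood at 0.375 FPKM in mock and 67.7 in untreated Col-0, LNK2 at 4.82 and 192, LNK1 at 1.89 and 49.9, and LNK4 at 2.101 and 40.9. All 4 LNK genes were thus low where CCA1, LHY and PRR9 were low.

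Of 5 evening complex relatives with an FPKM of at least 1, 2 were at least 2-fold higher in mock and 0 lower. ELF3, the scaffold of the complex, stood at 56.7 FPKM in mock and 12.9 in untreated Col-0, and BOA, a close homologue of LUX, at 14.2 and 0.838. BOA shares 1896 bases with UGT76E1 on the opposite strand, so its reads are uncertain. ELF4-L4 (10.3 and 6.42 FPKM) and ELF4-L3 (2.84 and 3.11 FPKM), homologues of ELF4, were less than 2-fold apart.

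Of 17 light input and accessory regulators only 3 were at least 2-fold apart, 2 higher and 1 lower in mock. JMJ30, a jumonji-domain histone demethylase gene, stood at 109 FPKM in mock and 1.96 in untreated Col-0. FKF1, a blue-light photoreceptor of the flowering pathway, stood at 9.79 and 1.51 FPKM. CHE, a TCP factor that represses CCA1, was lower in mock at 14.1 against 32.5 FPKM. The next in size, LKP2, a relative of ZTL, was at 11.8 and 6.75 FPKM.

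Of 13 clock outputs with an FPKM of at least 1, 4 were at least 2-fold higher in mock and 4 lower. COR27 and COR28, cold-regulated genes tied to the clock, stood at 53.4 and 19.8 FPKM in mock against 0.726 and 1.32 in untreated Col-0. CDF1 and CDF3, DOF factors of which CDF1 represses the flowering gene CO by day, stood at 0.389 and 3.76 FPKM in mock against 21.1 and 47.6. Of the 47 listed genes at FPKM 1 or more, 22 were at least 2-fold apart, 9 higher and 13 lower in mock, beside 8.75% higher and 7.52% lower among all genes at that level.

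**Figure D3:**
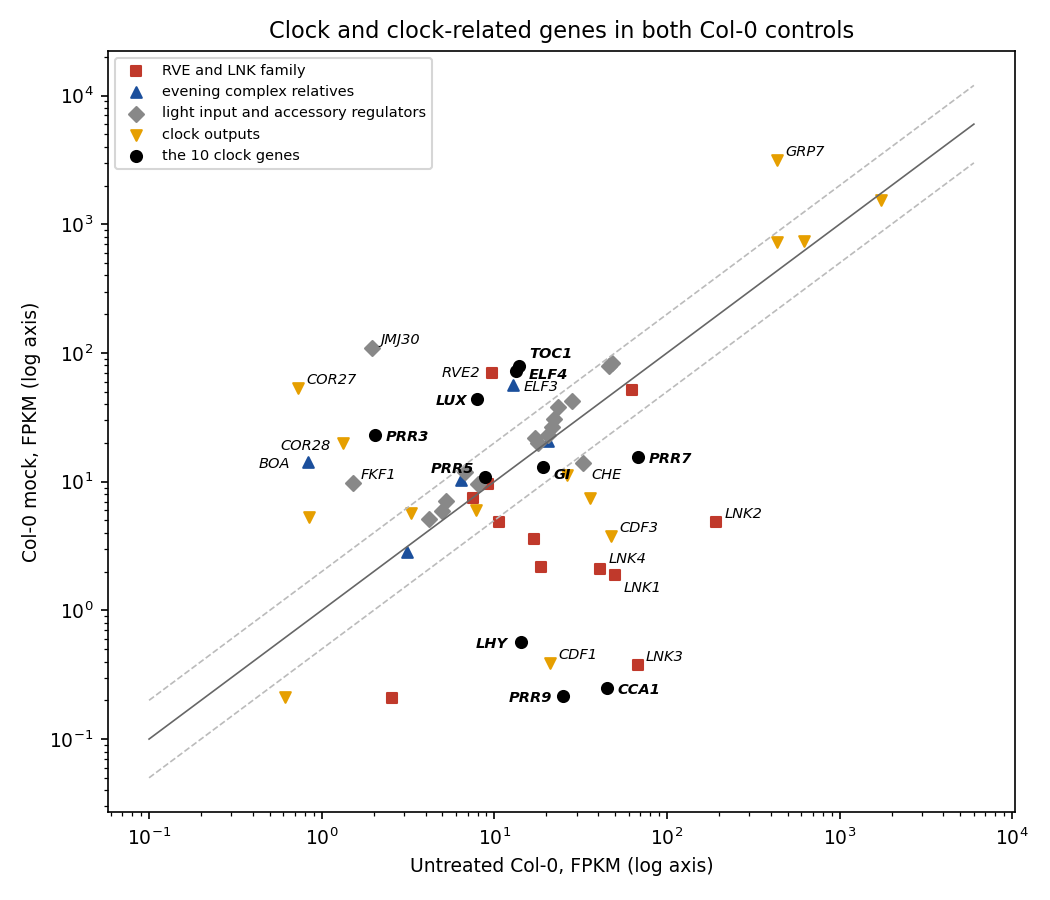
Level of the 10 clock genes (black) and of 48 other clock-related genes (coloured by list) in untreated Col-0 and in Col-0 mock, in FPKM on log axes, with the line of equal levels and dashed lines at 2-fold. ELF4-L1, listed at 0 in both, is not drawn. Among the labelled genes CCA1, PRR9, LHY, LNK3 and CDF1 lie below 1 FPKM in mock, and JMJ30 and COR27 are the farthest above the line.

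By a fixed rule the genes most like LHY and TOC1 over the 5 groups were sought among 16738 genes with at least 5 FPKM in their highest group, as the smallest distance between log2(FPKM + 1) profiles, each centred on its mean. The 3 nearest to LHY were AT3G53830 (distance 0.253; 0.614 FPKM in mock and 12.6 in untreated Col-0), AT3G44450 (0.327) and CDF3 (0.344). Nearest to TOC1 were AT1G19530 (0.208; 47.3 FPKM in mock and 8.49 in untreated Col-0), the B-box factor gene BZS1 (0.261) and the potassium channel gene KAT2 (0.267). The distance rests on 5 pooled values and is a description.

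The levels of leaf, root and flower markers also differed between the controls. All 9 markers of leaf, root and flower had values above 0 in the 5 groups, as whole seedlings should give for leaf and root. The summed level of the 3 leaf markers ranged from 10730 FPKM in mock to 18988 in untreated Col-0. Within it CAB3, a light-harvesting gene, was farthest apart, at 294 and 5780 FPKM. RBCS1A was at 6534 and 9080 FPKM, and RBCS2B was close in both, at 3903 and 4128. The 3 leaf markers thus did not differ alike, and their sum cannot be read as the share of leaf. The 3 root markers summed to 53.6 FPKM in mock and 28.5 in untreated Col-0, and the 3 flower markers to 2.90 and 10.4 FPKM. In bulk tissue a change in cell types and a change in RNA per cell cannot be told apart, and the part of these markers in the clock gene levels was not tested. The targeted genes bore out the labels: BEH2 stood at 25.8 FPKM in untreated Col-0 and 2477 in BEH2-YFP, BZR1 at 13.8 and 1265 in its own line, and the synthesis gene DWF4, which brassinosteroids repress, went from 13.5 FPKM in mock to 1.18 with brassinolide.

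Brassinolide against mock was the first comparison within an experiment. Of the 10 genes, 8 were tested by Cuffdiff and 0 were called in the authors' deposited table, against 5.46% of all genes tested (3.01% higher, 2.45% lower), and 0 of the 8 reached an unadjusted p under 0.05. Among these 8, TOC1 was farthest from equality, at 79.3 and 89.4 FPKM (log2 0.17 ± 0.15). ELF4 differed by log2 -0.11 ± 0.17, PRR3 by -0.12 ± 0.16 and GI by -0.08 ± 0.16. PRR5 (0.08 ± 0.18), PRR7 (0.06 ± 0.16), LUX (0.04 ± 0.16) and LHY (-0.06 ± 0.37) lay nearer to 0. CCA1 (log2 0.07) and PRR9 (0.21), both under 0.3 FPKM in mock and with brassinolide, were not tested by the authors. The median absolute log2 change of the 8 was 0.08, against 0.16 for all genes tested. Neither here nor below were these sets matched for expression level, so the medians only describe them. The root markers summed to 53.6 FPKM in mock seedlings and to 24.4 FPKM in treated ones, and their part in these values was not tested.

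Of 46 tested genes in the other clock lists 2 rose with brassinolide and 0 fell, which is near the background of 5.46% called. RVE1, a Myb-related factor that links the clock to auxin synthesis, rose from 4.87 to 9.48 FPKM (log2 0.96 ± 0.20). BOA rose from 14.2 to 20.8 FPKM (log2 0.56 ± 0.17). By list these were 1 of 11 RVE and LNK genes and 1 of 5 evening complex relatives, with 0 of 17 light input and accessory regulators and 0 of 13 outputs. The last 2 lists had 0 and 1 members at an unadjusted p under 0.05.

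**Figure D4:**
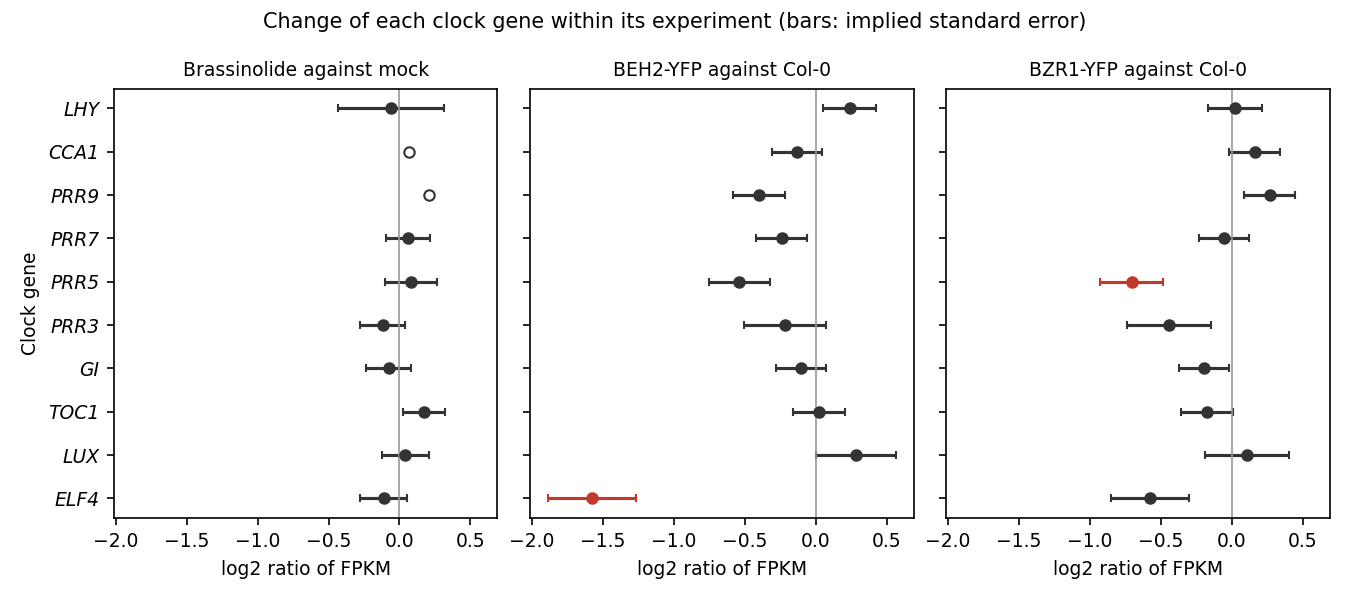
log2 ratio of FPKM for each clock gene in brassinolide against mock, BEH2-YFP against untreated Col-0 and BZR1-YFP against untreated Col-0, with the standard error implied by the deposited test statistic; red marks genes called in the authors' deposited tables and open circles genes the authors did not test. ELF4 lies at -1.58 in BEH2-YFP and PRR5 at -0.71 in BZR1-YFP, and no gene is past 0.21 with brassinolide.

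In BEH2-YFP, ELF4 was the 1 clock gene of 10 called in the authors' deposited table. It fell from 13.4 to 4.49 FPKM, 2.98-fold (log2 -1.58 ± 0.31). Of all genes tested 11.8% were called, 7.31% higher and 4.53% lower, so 1 of 10 is near the background. PRR5 (8.85 and 6.09 FPKM, log2 -0.54 ± 0.22) and PRR9 (24.9 and 18.9 FPKM, log2 -0.40 ± 0.18) were next in size and were not called. LUX, which acts in the same complex as ELF4, stood at 7.95 and 9.69 FPKM (log2 0.28 ± 0.28). CCA1 (log2 -0.13 ± 0.18), GI (-0.10 ± 0.18) and TOC1 (0.02 ± 0.18) lay near 0, as far as that error allows, and LHY stood at log2 0.24 ± 0.19, PRR7 at -0.24 ± 0.18 and PRR3 at -0.22 ± 0.29. The root markers summed to 28.5 FPKM in untreated Col-0 and 14.5 in BEH2-YFP, and the flower markers to 10.4 and 2.67. PRP3 (log2 -1.01), AP1 (-4.91) and PI (-1.90) were called lower. Most of the root sum was PRP3, at 21.2 and 10.5 FPKM. The root marker EXPA7 stood at 6.996 and 3.49 FPKM and was not called. The root marker NRT2.1 went the other way, at 0.226 and 0.514 FPKM (log2 1.19), and was not called. The part of these markers in the clock gene values was not tested. The median absolute log2 change was 0.24 for the 10, against 0.26 for all genes tested.

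In BZR1-YFP, PRR5 was the 1 gene of 10 called, from 8.85 to 5.42 FPKM (1.63-fold lower, log2 -0.71 ± 0.22; q = 0.0354 in the authors' deposited table). Of all genes tested 1.62% were called, 1.15% higher and 0.478% lower. The deposited q-values of both overexpression tables differed from an adjustment within each table. A Cuffdiff p-value of 5e-05 carried the same q-value, 0.00149, in both, so a q-value there depends on more than its own comparison. Adjusted within its own table the value for PRR5 was 0.150 and it was not called. ELF4 stood at 8.99 FPKM, log2 -0.58 ± 0.27, PRR3 at -0.44 ± 0.30, PRR9 at 0.27 ± 0.18, and GI, TOC1, CCA1, LUX, PRR7 and LHY were between -0.19 and 0.16 on that scale. The median absolute log2 change was 0.18, against 0.14 for all genes tested. The root markers summed to 28.5 FPKM in untreated Col-0 and 20.6 in BZR1-YFP, and the flower markers to 10.4 and 5.89. Of these markers only AP1 was called in the authors' deposited table. NRT2.1 went the other way, at 0.226 and 0.254 FPKM, and was not tested by the authors. The part of these markers in the clock gene values was not tested.

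Both lines were set against the same untreated Col-0 libraries, so their changes are not independent of each other. For ELF4 the BEH2-YFP change minus the BZR1-YFP change was -0.9994 ± 0.41 on the log2 scale, and for PRR9 it was -0.67 ± 0.26, given without a test because the set was chosen with these values in view. For the other 8 the difference was at most 0.29 in size.

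Of 48 tested genes in the other clock lists, 5 rose and 3 fell in BEH2-YFP, beside 7.31% higher and 4.53% lower among all genes tested. RVE1 rose from 10.6 to 17.2 FPKM (log2 0.69 ± 0.20) and RVE2, another Myb-related factor, from 9.66 to 16.3 (0.75 ± 0.22), 2 of 12 RVE and LNK genes. Of 5 evening complex relatives ELF4-L3 rose, from 3.11 to 6.55 FPKM (1.08 ± 0.32). These 3 risers are homologues of clock repressors and activators and not the core genes themselves.

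Of 17 light input and accessory regulators 1 rose and 1 fell in BEH2-YFP. TCP20, a TCP factor that activates CCA1, rose from 5.26 to 9.13 FPKM (log2 0.80 ± 0.23). JMJ30 fell from 1.96 to 0.823 FPKM (-1.25 ± 0.37). Of 14 outputs 1 rose and 2 fell. COL1, a homologue of the flowering regulator CO, rose from 26.5 to 57.3 FPKM (1.11 ± 0.22), and shares 1807 bases with a noncoding RNA on the opposite strand. GRP7, an RNA-binding protein of a clock-driven feedback loop, fell from 435 to 246 FPKM (-0.82 ± 0.19), and CCL, a clock-controlled gene, from 433 to 283 FPKM (-0.61 ± 0.19). COR28 (1.32 and 0.514 FPKM) and COR27 (0.726 and 0.328 FPKM) were not called. Adjusted within the table, 11 of the other clock genes were called in place of 8. The added genes were the accessory regulator TIC (log2 0.54), LNK4 (0.50) and COR28 (-1.36).

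In BZR1-YFP 1 of the 48 rose and 0 fell, beside 1.15% higher and 0.478% lower among all genes tested. FT, which encodes the mobile flowering signal, rose from 3.30 to 6.86 FPKM (log2 1.05 ± 0.31); adjusted within its own table the value was 0.130 and FT was not called. In BEH2-YFP it stood at 1.59 FPKM, which was not called. The change in BEH2-YFP minus that in BZR1-YFP was compared with its standard error under a normal approximation, two-sided, with Benjamini-Hochberg adjustment at 0.05 over 22336 genes, of which 3.59% differed. FT was the 1 gene of the 48 to differ, with a log2 difference of -2.11 ± 0.50. That error counts the shared Col-0 libraries in both changes and is therefore an upper value. The flower marker AP1 stood at 3.61 FPKM in untreated Col-0, 0.120 in BEH2-YFP and 1.63 in BZR1-YFP and was called lower in both lines in the authors' deposited tables, though not in BZR1-YFP when adjusted within that table (0.0931); its part in the FT values was not tested.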

How the data were processed

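Messenger RNA was sequenced from 10 libraries made with a stranded kit, per the labels' protocols. Per the submitters' processing notes the tools were TopHat2 2.0.13 and Cuffdiff 2.2.0 and the build TAIR10; trimming, annotation version and strand setting are not stated there. The authors deposited, per the file headers, 1 pooled FPKM per gene and group, a log2 ratio without pseudocount, a fold, a test statistic (a score of Cuffdiff), a p-value and a q-value, in 3 tables. Untreated Col-0 values were identical for all 38303 genes of both overexpression tables. Depth is unknown, so no interval or floor is given. Replicate numbers could not be used, because values are pooled.

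Ratios were recomputed from FPKM without a pseudocount. The standard error is the absolute log2 ratio over the absolute statistic times a constant k, fitted as the median ratio of the normal score of each deposited p-value to its statistic (1.43, 1.42 and 1.43 for brassinolide, BEH2-YFP and BZR1-YFP). Deposited q-values gave the calls. For brassinolide they matched an adjustment over all genes tested within the table, and for both overexpression tables they did not. The planned models per library were not run, since the tables hold pooled values only. All 71 listed genes were matched by locus. Named genes were the 10 members, in each list up to 4 called genes per comparison by q and then size, and up to 4 by size of the control ratio at FPKM 1 or more. The members and lists were chosen with earlier results of these data known. Alternatives were other call thresholds, an FPKM filter, a pseudocount of 1, median centring and, chosen after seeing the data, adjustment within a table. Scripts ran in Python 3.11.15 with SciPy 1.17.1, pandas 2.3.3, numpy 2.4.6 and matplotlib 3.10.9.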

Additional observations from a re-analysis of the deposited data

Results flagged for a closer look

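FT differed between the overexpression lines in the test of the difference itself: it stood at 3.30 FPKM in untreated Col-0, 1.59 in BEH2-YFP and 6.86 in BZR1-YFP, and the BEH2-YFP change minus the BZR1-YFP change was -2.11 ± 0.50 on the log2 scale, past the adjusted threshold of 0.05 over 22336 genes and also with an FPKM filter of 1. Of all genes in that test 3.59% differed, and FT was the 1 of 48 listed clock genes to do so. FT was not called in BEH2-YFP, and its call in BZR1-YFP ended on adjustment within the table (0.130). The lines share their control libraries. In the hormone experiment FT was at 5.70 FPKM in mock and 5.77 in treated seedlings.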

How the results depend on the processing

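No paired analysis was possible because the deposited tables hold 1 pooled value per group, and for the same reason no library could be left out. The 8 clock genes at least 2-fold apart between the controls remained 8 in number with log2(FPKM + 1), after centring on the median ratio, and at 1.5-fold. The 30 log2 changes of the clock genes in the 3 comparisons kept their sign with the pseudocount and with centring, moving by at most 0.19 and 0.0055. The counts of calls depended on the threshold. At an unadjusted p under 0.05 the called clock genes numbered 3 in BEH2-YFP and 2 in BZR1-YFP in place of 1 each, and the other clock genes 6 with brassinolide and 16 in BEH2-YFP in place of 2 and 8. Requiring 2-fold and a q-value below 0.1 left 0 clock genes in BZR1-YFP, 0 other clock genes with brassinolide and 4 in BEH2-YFP. Adjusting p-values within a table ended the calls of PRR5 and FT in BZR1-YFP, leaving 0 and 0, and over all genes called 195 in place of 367. In BEH2-YFP it called 3118 in place of 2691, and 11 other clock genes in place of 8. The FPKM filter of 1 was run with the same adjustment within the table and gave the same counts of 0, 0 and 11; PRR5 and FT pass the filter itself.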
